A study of Homo sapiens with 4 samples.

Results

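The 10 genes described here encode the NF-kappaB subunits and proteins that regulate them: NFKB1, NFKB2, REL, RELA, RELB, NFKBIA, NFKBIB, NFKBIE, TNFAIP3 and BCL3. They were chosen by symbol, with earlier results of these data known, from the 23622 genes of the deposited table, and all 10 were found and could be tested. RNA was sequenced from MV4-11, a human acute myeloid leukemia cell line with myelomonocytic features, in 2 control libraries (sh-NC) and 2 libraries with IRF1 knockdown (sh-IRF1). According to the study, the cells were infected with lentivirus made from a pLKO.1 vector and selected with puromycin. The sample labels give the genotype of the control libraries as WT and their treatment as none, while the study calls its control hairpin sh-NC. 2 hairpins against IRF1 are listed by the study, and the sources used here do not tie either one to a library. Nothing in the labels says whether libraries of the same group came from separate cultures. The p-values thus rest only on the spread between these libraries, which may be technical. In limma, the main test, the spread of each gene was pulled toward a trend over all 14120 genes tested. The prior behind that trend had 42.98 degrees of freedom. A small p-value from limma is therefore no measure of a gene's own spread between 2 libraries per group.

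NF-kappaB is a family of dimeric transcription factors built from the 5 Rel subunits. In resting cells the inhibitors of the IkappaB family hold the dimers in the cytoplasm. Kinases of the IKK complex mark the inhibitors for destruction after signals such as TNF, interleukin 1 or bacterial products, and the freed dimers bind kappa B sites in DNA. Many genes of the family carry kappa B sites of their own, so that inhibitors such as NFKBIA and TNFAIP3 are remade as the signal proceeds. In myeloid cells the pathway is known for inflammatory cytokines, adhesion proteins and survival genes. IRF1 is a transcription factor of the interferon response that acts together with NF-kappaB at several inflammatory promoters.

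The 21-base targets of both hairpins are shown because they define the knockdown.
sh-IRF1#1 target: gcaccagtgatctgtacaact
sh-IRF1#2 target: ggaaattacctgaggacatca
In GENCODE 44 the first matched 12 IRF1 transcripts exactly over its 21 bases and the second 13. Neither so matched a transcript of any of the 10 NF-kappaB genes. Shorter or imperfect matches were not searched, so action of the hairpins on other genes was not tested.

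RefSeq promoter windows (GRCh38.p14, 250 bases before to 50 after each annotated start) were held for 8 of the 10 genes, in 13 windows. RELB and NFKBIE had no entry. The 10-base kappa B consensus was searched on both strands, and it was found in 8 of the 13 windows and in 7 of the 8 genes. It stood in 11.3% of all 35116 windows held, and in 13.3% of all 27305 genes. These genes are textbook examples of promoters with kappa B sites, so the share is a description of the promoters and says nothing of binding in these cells. The stretches below are 30 bases each, read 5′ to 3′ on the strand of the gene, with the kappa B matches in capitals. They are shown because they are where the family's own motif stands relative to the starts of the genes whose transcripts are compared.
NFKB1, chr4:102501300-102501329 (+): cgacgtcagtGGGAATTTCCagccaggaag
NFKB2 second start, chr10:102394461-102394490 (+): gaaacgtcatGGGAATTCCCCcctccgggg
NFKB2 second start, chr10:102394490-102394519 (+): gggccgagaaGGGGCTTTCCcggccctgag
NFKB2 last start, chr10:102395519-102395548 (+): aacccccaccGGGGCTTCCCggattctcct
NFKB2 last start, chr10:102395674-102395703 (+): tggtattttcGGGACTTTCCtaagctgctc
REL, chr2:60881517-60881546 (+): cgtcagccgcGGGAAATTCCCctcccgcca
NFKBIA, chr14:35404811-35404840 (-): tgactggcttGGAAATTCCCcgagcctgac
NFKBIB second start, chr19:38899931-38899960 (+): gggcgtggtgGGGAATTTCCCgcagggcgg
BCL3, chr19:44748700-44748729 (+): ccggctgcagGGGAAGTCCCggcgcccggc
TNFAIP3, chr6:137867188-137867217 (+): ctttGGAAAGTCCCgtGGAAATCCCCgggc
The NFKB2 stretches at its second start, and the REL and BCL3 stretches, lay fully inside annotated exons of their own genes. The NFKBIA stretch and the first one at the last NFKB2 start touched no annotated exon.

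Relative to the start base, counted as 0, the match in NFKB1 began at -49, the match in REL at -47, and the match in NFKBIA at -81. TNFAIP3 carried 2 matches, which began at -67 and -55, and BCL3 carried 1 that began at 2, just inside the transcript. NFKBIB held a further match at its second start, which began at 38. Neither RELA window held a kappa B match. A repeat of the kind that interferon regulatory factors bind, with 2 copies of GAAA around any 2 bases, was searched on both strands and overlapped no kappa B match. It occurred in 1 of the 8 genes, in the first RELA window, where the first base of the match stood at -237, and in 4.38% of all genes with a window.
RELA first start, chr11:65664075-65664104 (-), repeat in capitals: agccactggaGAAACTGAAAtgagtgggcg
That stretch lay in an exon of the divergent transcript RELA-DT.

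**Figure D1:**
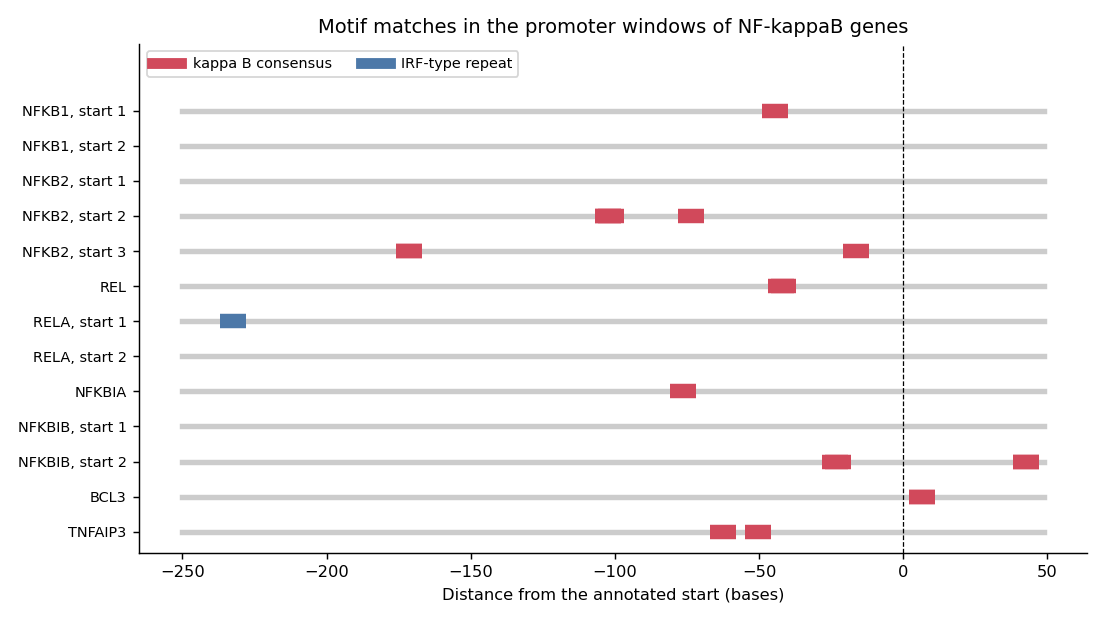
Positions of motif matches in the 13 RefSeq promoter windows of 8 NF-kappaB genes, with the distance from the annotated start in bases on the x axis and 1 window per row. Red blocks mark the kappa B consensus, present in 8 windows, and the blue block marks the IRF-type repeat, present in the first RELA window only.

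IRF1 (ENSG00000125347) itself was measured first, as the check of the labels. Its normalized counts were 785 and 738 in the sh-NC libraries and 430 and 432 in the sh-IRF1 libraries, so every sh-IRF1 library was below every sh-NC library. A normalized count is the number of reads of a gene divided by 1 size factor per library. The knockdown left 56.6% of the control transcript level. The log2 fold change, taken on log2(normalized count + 1) as all fold changes here, was -0.82 (adjusted p = 1.69e-10 from limma, standard error 0.0904). Of the exonic bases of IRF1, 22.9% are shared with 2 antisense genes, IRF1-AS1 and ENSG00000283782. The normalized counts of IRF1-AS1 were 21.5, 33.9, 29.8 and 20.6 in the 4 libraries.

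Depth was even. The libraries held between 17635908 and 18695337 recovered reads, mitochondrial genes took between 3.92% and 4.51% of the reads, and the 10 NF-kappaB genes were covered by 178 to 2403 reads each in every library. Replicates varied beyond sampling noise (chi-square per gene 2.52 for sh-NC, 2.37 for sh-IRF1). Of the 12 myeloid markers checked, all 12 passed the filter on low values, and their summed normalized counts ran from 52849 to 52949 in the controls and from 48433 to 48529 in sh-IRF1. Singly, 3 were higher in sh-IRF1 (LYZ, SPI1 and ITGAM) and 5 were lower, among them FLT3, MPO, PTPRC and CEBPA. That is 66.7% with an adjusted p under 0.05 from limma, beside 42.2% of all genes tested. Of their exonic bases, 34.7% of LYZ and 43.9% of CEBPA are shared with genes on the other strand. T cell markers summed to at most 14.4 in any library. Of 12 monocyte maturation markers, 8 were matched and 5 were tested, with 1 higher (ITGAX) and 3 lower (FCGR1A, CD14 and S100A9). That is 80% called, beside 42.2% of all genes tested, with a median log2 fold change of -0.57. The sums of the 8 matched genes ran from 1590 to 1710 in the controls and from 1539 to 1596 in sh-IRF1. The B cell list summed to 104 and 130 in the controls and to 263 and 320 in sh-IRF1, mostly through CD79A, which rose from 46.7 ± 5.04 to 220 ± 42.6 (SD, n = 2 each), while MS4A1 was not matched in the table. Of the other lists, erythroid markers summed to at most 28.8, fibroblast markers to at most 52.7 and epithelial markers, here KRT8 and KRT18, to between 254 and 392. The part of these marker shifts in the results below was not tested. In bulk RNA, a change in the share of one kind of cell and a change in the RNA of every cell cannot be told apart.

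Among the 10 NF-kappaB genes, 3 rose with the knockdown (NFKB2, REL and NFKBIE), 2 fell (BCL3 and TNFAIP3) and 5 did not pass the test (NFKB1, RELA, RELB, NFKBIA and NFKBIB). That is 50% of the genes, beside 42.2% of all 14120 genes tested (20.3% higher and 21.9% lower, adjusted p under 0.05 from limma), so the share called was close to that of all genes. The largest rise was that of NFKBIE, to 153% of the control level, and the largest fall that of BCL3, to 62.2%. With a log2 fold change beyond 0.5 required as well, 2 of the 10 remained, NFKBIE and BCL3, beside 15.8% of all genes tested. The groups did not overlap for 7 of the 10, beside 69.2% of all genes tested. The 10 genes had a median log2 fold change of 0.056, beside -0.0019 for all genes tested.

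**Figure D2:**
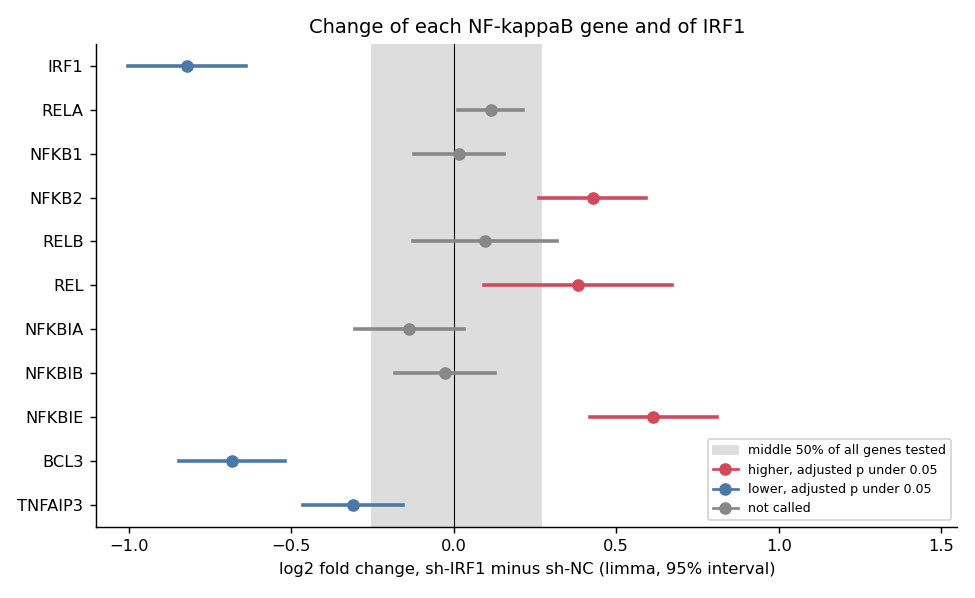
Log2 fold change (sh-IRF1 minus sh-NC, limma, lines are 95% intervals) of IRF1 and the 10 NF-kappaB genes on the x axis, with 1 gene per row and the gray band covering the middle 50% of all genes tested, from -0.25 to 0.27. NFKB2, REL and NFKBIE lie to the right, and BCL3 and TNFAIP3 to the left with IRF1. The points of the other 5 lie within the band, and the intervals of RELB and NFKBIA reach past it.

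The subunits were unequal in level and in response. Per kilobase of transcript, RELA, the main activating subunit with a transactivation domain, was the most abundant of the 10 genes, at 833 ± 33.8 normalized counts in the controls and 902 ± 9.91 in sh-IRF1 (SD, n = 2 each). REL was the least abundant, at 17.7 ± 1.78 and 23.0 ± 0.256. The order in sh-NC was RELA, NFKBIB, BCL3, NFKBIA, NFKB1, NFKB2, TNFAIP3, NFKBIE, RELB and REL, in which BCL3 overlapped NFKBIA and NFKBIE overlapped RELB between libraries. This order uses the canonical transcript length and changes with the length used, for NFKB1 and NFKB2 and for other genes. With the length of all annotated exons, RELA overlapped NFKBIB in the controls. NFKBIE then stood above RELB and TNFAIP3 in both sh-NC libraries. At the canonical length, BCL3 moved below NFKBIA in sh-IRF1, and the neighbours in the sequence BCL3, NFKB2, NFKB1 and NFKBIE overlapped. At that length NFKBIE, level with RELB in sh-NC, stood above it in both sh-IRF1 libraries, and TNFAIP3 fell below RELB.

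NFKB2 (ENSG00000077150; chromosome 10, 102394110 to 102402524) encodes the precursor that is processed to the DNA-binding partner of RELB in the noncanonical pathway. Its normalized counts were 630 and 703 in the sh-NC libraries and 950 and 843 in the sh-IRF1 libraries. Both knockdown libraries were above both control libraries, and the gap between the groups was wider than the gap between replicates. NFKB2 rose to 135% of the control level (log2 fold change 0.43, standard error 0.0815, adjusted p = 2.45e-05 from limma). The call held under all 15 alternatives computed for it, with log2 fold changes from 0.34 to 0.51. Both later annotated starts of NFKB2 carry kappa B matches, shown above, while the first carries none in its window.

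NFKB1 (ENSG00000109320; chromosome 4, 102501330 to 102617302) encodes the corresponding precursor of the canonical pathway, whose processed form pairs with RELA. It measured 1102 and 1055 normalized counts in the controls and 1154 and 1030 in sh-IRF1, and the groups overlapped. Its log2 fold change was 0.016 with a 95% interval from -0.12 to 0.15 (adjusted p = 0.876 from limma). The interval leaves out a rise of the size seen for NFKB2. Within each library the ratio of NFKB2 to NFKB1, per length, was 0.769 and 0.896 in the controls and 1.11 and 1.10 in sh-IRF1, so the ratio was higher in both knockdown libraries than in both controls. Which of the pair was the more numerous depends on the transcript length used. The mean ratio was 1.33-fold higher in sh-IRF1. An exact two-sided permutation test gave p = 0.33, the smallest that 2 libraries against 2 can give.

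REL (ENSG00000162924; chromosome 2, 60881491 to 60931612) encodes a subunit best known from lymphocytes. Its normalized counts were 183 and 211 in the controls and 254 and 258 in sh-IRF1. The groups did not overlap, and REL rose to 130% of the control level (log2 fold change 0.38, standard error 0.144, adjusted p = 0.0287 from limma). This call was the least stable of the 5. DESeq2 gave an adjusted p = 0.0851, and it was also lost without sh-NC replicate 1 (log2 fold change 0.28), sh-IRF1 replicate 1 (0.39) or sh-IRF1 replicate 2 (0.37). Of the annotated exonic bases of REL, 33.3% are shared with another gene on the same strand, ENSG00000267520. That gene is absent from the deposited table, so the reads of REL are uncertain.

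RELA (ENSG00000173039; chromosome 11, 65653599 to 65663090) measured 2157 and 2037 normalized counts in the controls and 2287 and 2252 in sh-IRF1. Both knockdown libraries were above both controls, by a small margin. The log2 fold change was 0.11, with a standard error of 0.0497 and an adjusted p = 0.0599 from limma, just outside the threshold. With edgeR on the recovered reads the adjusted p was 0.0460, and scaling by total reads gave a log2 fold change of 0.16 with an adjusted p = 0.00769. RELB (ENSG00000104856; chromosome 19, 45001461 to 45038192), the subunit of the noncanonical pathway, measured 411 and 358 in the controls and 402 and 420 in sh-IRF1. Its groups overlapped, and its log2 fold change was 0.097 with a 95% interval from -0.12 to 0.32 (adjusted p = 0.511 from limma).

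**Figure D3:**
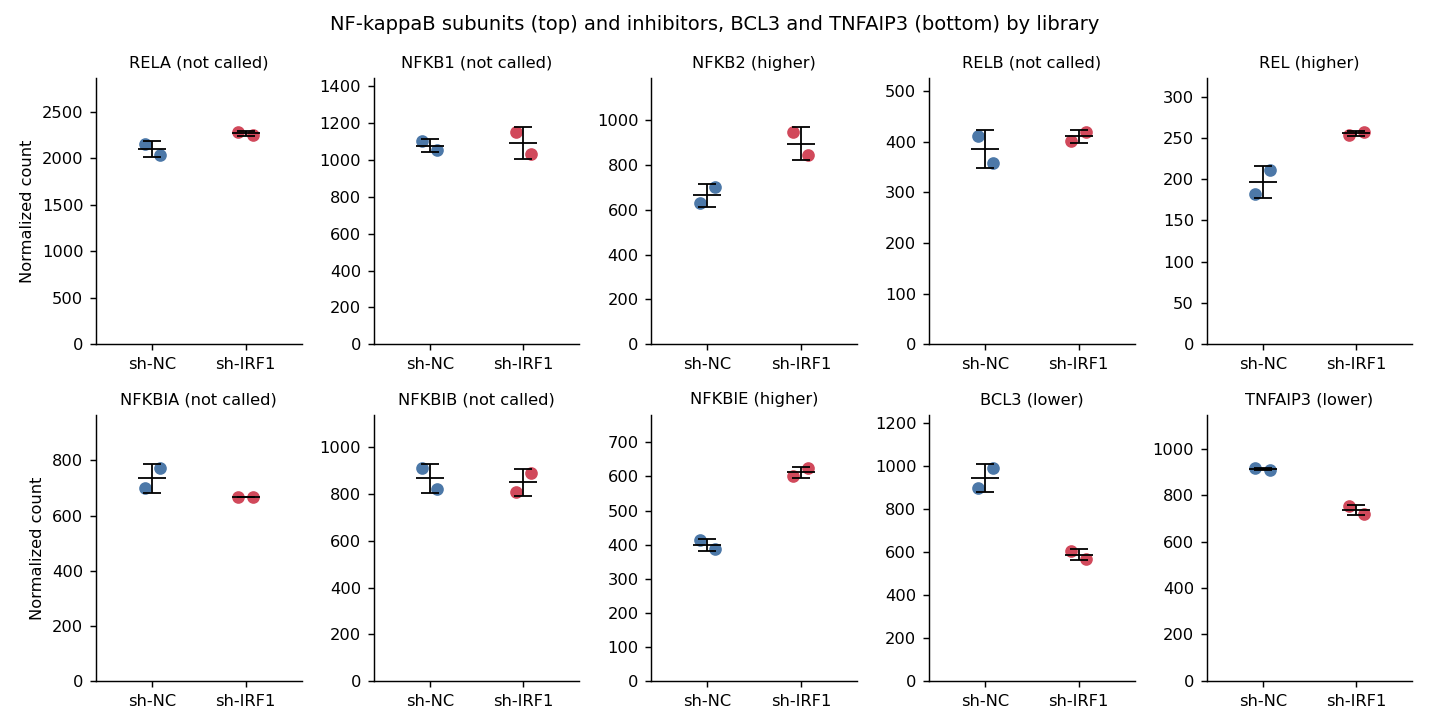
Normalized count of each of the 10 NF-kappaB genes by library, with both libraries of each group as points, the mean as a bar and the SD as whiskers, on axes that start at 0. NFKB2, REL and NFKBIE sit higher in sh-IRF1, BCL3 and TNFAIP3 sit lower, and NFKB1, RELB and NFKBIB overlap between the groups.

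The make-up of the subunit pool was then compared within each library, which does not depend on the scaling between libraries. Per length, RELA supplied 55.2% ± 0.789 of the 5 subunit transcripts in the controls and 53.9% ± 1.04 in sh-IRF1 (SD, n = 2 each). The share of NFKB2 was 14.7% ± 1.52 in the controls and 17.8% ± 0.957 in sh-IRF1, and that of NFKB1 was 17.6% ± 0.0772 and 16.1% ± 0.806. RELB supplied 11.3% and 10.9%, and REL 1.18% and 1.38%. The shares depend on the transcript length used. With the length of all annotated exons in place of the canonical transcript, NFKB1 supplied 9.65% in the controls and 8.72% in sh-IRF1, and NFKB2 16.8% and 20.1%. Without division by length, NFKB1 supplied 24.4% and 22.2%, and NFKB2 15.1% and 18.2%. NFKB2 was thus above NFKB1 in both groups in one case and below it in both in the other, and the order of the pair is not settled by these data. The mean share of NFKB2 was higher in sh-IRF1 in all 3 cases.

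**Figure D4:**
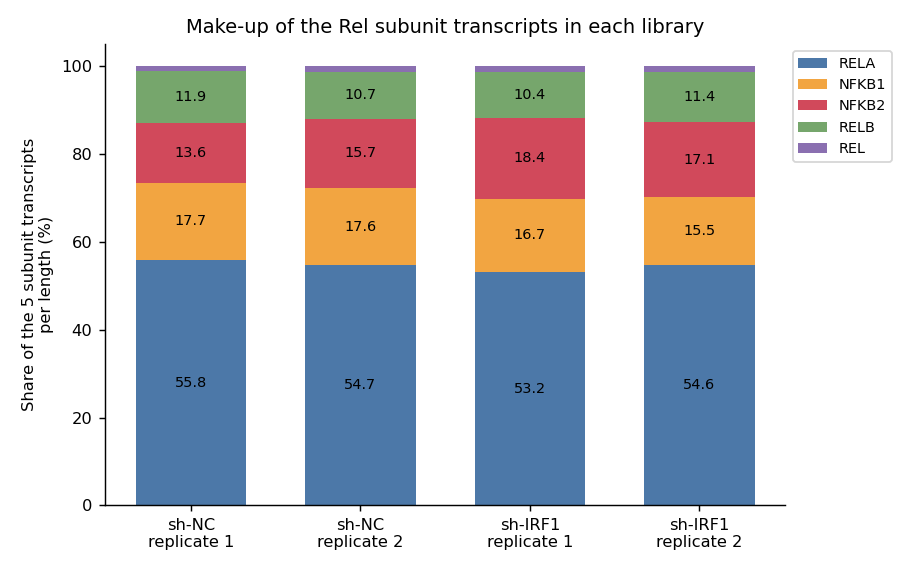
Share of each subunit among the 5 Rel subunit transcripts per length in each library, as stacked bars in percent of the sum. The NFKB2 segment is 13.6% and 15.7% in the sh-NC libraries and 18.4% and 17.1% in the sh-IRF1 libraries, and the RELA segment is above 53% in all 4.

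Of the 3 classical inhibitors, NFKBIE rose and NFKBIA and NFKBIB did not pass the test. NFKBIE (ENSG00000146232; chromosome 6, 44258166 to 44265788), which encodes IkappaB epsilon, measured 412 and 387 normalized counts in the controls and 601 and 624 in sh-IRF1. The groups were far apart and each was tight. NFKBIE rose by 0.61 on the log2 scale (adjusted p = 8.27e-07 from limma, standard error 0.0972), the largest rise among the 10 genes, and its call held under all 15 alternatives, with log2 fold changes from 0.57 to 0.66.

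NFKBIA (ENSG00000100906; chromosome 14, 35401079 to 35404749), which encodes IkappaB alpha, the rapidly resynthesized inhibitor, measured 699 and 771 in the controls and 668 and 667 in sh-IRF1. Both knockdown libraries were below both controls, but the gap was no wider than the spread of the controls. Its log2 fold change of -0.14, with a 95% interval from -0.30 to 0.031, did not pass the test (adjusted p = 0.189 from limma). NFKBIB (ENSG00000104825; chromosome 19, 38899700 to 38908893), which encodes IkappaB beta, measured 911 and 824 in the controls and 811 and 892 in sh-IRF1. Its groups overlapped, and its log2 fold change was -0.027 with a 95% interval from -0.18 to 0.13 (adjusted p = 0.811 from limma).

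Per length, the ratio of NFKBIE to NFKBIA was 0.393 and 0.334 in the sh-NC libraries and 0.598 and 0.622 in the sh-IRF1 libraries, a 1.68-fold higher mean (exact permutation p = 0.33, the smallest possible). At the canonical length NFKBIA remained the more abundant of the pair in all 4 libraries. At the length of all annotated exons NFKBIE was above NFKBIA in both sh-IRF1 libraries. The 3 inhibitors together, per length, amounted to 0.904 and 0.913 of the sum of the 5 subunits in the controls and to 0.799 and 0.881 in sh-IRF1. The mean ratio was 0.908 ± 0.00651 in the controls and 0.840 ± 0.0581 in sh-IRF1 (SD, n = 2 each, exact permutation p = 0.33). Without division by length the groups overlapped, so no difference in this ratio can be stated.

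BCL3 (ENSG00000069399; chromosome 19, 44747705 to 44760044) is an atypical nuclear IkappaB protein, which binds homodimers of the processed NFKB1 and NFKB2 products and can activate transcription through them. Its normalized counts were 899 and 991 in the controls and 606 and 570 in sh-IRF1. Both knockdown libraries lay well below both controls. BCL3 fell to 62.2% of the control level (log2 fold change -0.68, standard error 0.0810, adjusted p = 1.18e-09 from limma), with log2 fold changes from -0.75 to -0.61 over 15 alternatives, past the threshold in each. Its ratio to NFKB1 per length was 1.76 and 2.03 in the controls and 1.13 and 1.20 in sh-IRF1. BCL3 and RELB lie 241 kb apart on chromosome 19, and RELB showed no such fall. Of the 9 other genes tested within 250 kb of BCL3, 1 was higher and 2 were lower, 33.3% beside 42.2% of all genes tested. A regional cause was not tested.

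TNFAIP3 (ENSG00000118503; chromosome 6, 137867214 to 137883314) encodes a ubiquitin-editing enzyme that ends NF-kappaB signaling upstream of IKK. Its normalized counts were 916 and 909 in the controls and 753 and 720 in sh-IRF1, and the groups were clearly separate. TNFAIP3 fell to 80.7% of the control level (log2 fold change -0.31, standard error 0.0758, adjusted p = 0.000763 from limma). The fall was within 0.5 on the log2 scale, and the call held under all 15 alternatives. With BCL3 and TNFAIP3 counted among the inhibitors, the ratio of inhibitor to subunit transcripts per length was 1.34 and 1.40 in the controls and 1.08 and 1.16 in sh-IRF1 (exact permutation p = 0.33). This ratio did not overlap between the groups with or without division by length. Both genes added are those called lower, and BCL3 can also activate transcription. The lower ratio is therefore no measure of lost inhibition.

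The other IkappaB-like genes were 4: NFKBIZ, NFKBID, NFKBIL1 and ANKRD42. None passed limma's test, with 0 of 4 also at an unadjusted p under 0.05 and 0 with edgeR or DESeq2, and their log2 fold changes ran from -0.09 (NFKBIZ) to 0.12 (NFKBID). The first of these was near the lower limit of the data, between 17.9 and 20.5 normalized counts in the 4 libraries.

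Upstream of the inhibitors, the IKK subunits did not pass the test. The kinases CHUK and IKBKB, which phosphorylate the IkappaB proteins, had log2 fold changes of -0.04 (adjusted p = 0.713) and 0.04 (adjusted p = 0.626), both from limma. IKBKG, the scaffold of the complex, has a near-identical pseudogene copy and was uneven between replicates, at 384 and 213 in the controls and 315 and 255 in sh-IRF1. Of the 18 kinases and kinase adaptors listed, 3 were higher and 3 were lower, 33.3% beside the 42.2% of all genes. TAB2, which links ubiquitin chains to the kinase MAP3K7, fell to 59.7% of the control level (log2 fold change -0.74, adjusted p = 1.69e-11 from limma), from 1168 and 1338 to 699 and 796 normalized counts. MAP3K7 itself had a log2 fold change of 0.07 (adjusted p = 0.410). MAP3K1 fell by 0.55 and PRKCD fell by 0.24 on the log2 scale. MAP3K3 rose by 0.28, RIPK1, the kinase at the TNF receptor, by 0.21, and MAP3K8 by 0.74 from low control values of 35.9 and 39.0 normalized counts. The 3 higher calls were unstable. MAP3K8 lost its call with DESeq2, with no filter, with no robust shrinkage and without either sh-NC library or sh-IRF1 replicate 1, where it was at 0.40. RIPK1 lost its call with DESeq2, with no filter and without sh-NC replicate 2 or either sh-IRF1 library, and MAP3K3 without sh-IRF1 replicate 2. DESeq2 called 1 higher gene of this list, as did limma when either sh-IRF1 library was left out, and 5 were lower without sh-NC replicate 2.

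Of the 27 ubiquitin enzymes and adaptors of the pathway, 25 were tested, 5 were higher and 4 were lower, a share of 36% beside the 42.2% of all genes. CYLD, a deubiquitinase that opposes the pathway as TNFAIP3 does, fell by 0.31 on the log2 scale, and UBE2N, the conjugating enzyme for the chains that TAB2 binds, fell by 0.26. Of the exonic bases of UBE2N, 41.6% are shared with NUDT4 on the other strand. RBCK1 and SHARPIN, partners in the enzyme that builds linear ubiquitin chains, moved in opposite directions, with log2 fold changes of -0.18 and 0.27. FBXW11 and BTRC, the paralogs that recognize phosphorylated IkappaB for destruction, had log2 fold changes of -0.19 and 0.44. The call of FBXW11 was lost with scaling by total reads and without sh-NC replicate 2 or sh-IRF1 replicate 1, and that of BTRC without sh-NC replicate 1 or sh-IRF1 replicate 2. RBCK1 and PELI1 lost theirs without sh-IRF1 replicate 1. TRAF3, which restrains the noncanonical pathway, rose by 0.21 (0.14 without sh-NC replicate 2), and PELI1 rose by 0.79. BIRC3, itself a known NF-kappaB target, rose by 1.72 but from very few reads, with 5.13 and 13.4 normalized counts in the controls and 28.8 and 30.9 in sh-IRF1 (log2 fold change 1.10 without sh-NC replicate 1). Its call was lost without sh-NC replicate 1 or either sh-IRF1 library. The number of higher genes in this list was 3 when sh-NC replicate 1 or either sh-IRF1 library was left out, and 8 with scaling by total reads. The number of lower genes was 2 without sh-IRF1 replicate 1.

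Receptors and adaptors held more lower than higher genes. Of 26 listed, 23 were tested, 4 were higher and 10 were lower, 60.9% in all beside the 42.2% of all genes, with a median log2 fold change of -0.11 beside -0.0019 for all genes tested. With a minimum value of 50, 5 were higher and 7 were lower. Of the lower genes, TNFRSF13C (log2 fold change -1.21) lost its call with edgeR and with DESeq2. IL1RAP, the shared chain of the interleukin 1 receptor, fell from 4429 and 4626 to 2406 and 2490 normalized counts (log2 fold change -0.89, adjusted p = 1.67e-22 from limma). TNFRSF1B, the second TNF receptor, fell to 61.6% of the control level (log2 fold change -0.70), and TNFRSF1A, the first, fell to 84.2% (log2 fold change -0.25). TLR2 fell by 0.39 and TLR4 by 0.45 on the log2 scale. CD14, their coreceptor and the largest fall of the list, had 38.0 and 42.1 normalized counts in the controls and 10.9 and 1.87 in sh-IRF1 (log2 fold change -2.81, and -1.78 without sh-IRF1 replicate 2). Higher in sh-IRF1 were 4 genes of the list. IRAK1 stood at 8639 and 8606 in the controls and 10053 and 10060 in sh-IRF1 (log2 fold change 0.22, adjusted p = 3.59e-08 from limma). The adaptors MYD88 and TICAM1 rose by 0.23 and 0.27, and the sensor NOD2 by 0.20, and MYD88, TICAM1 and NOD2 lost their calls without sh-IRF1 replicate 2, with MYD88 then at 0.11 and NOD2 at 0.12. The call of MYD88 was also lost without sh-NC replicate 1, and that of NOD2 with DESeq2, with no filter and without either sh-NC library. IRAK3, an inhibitory member of the IRAK family, fell by 0.29. The list held 2 higher genes without sh-NC replicate 1 and 1 without sh-IRF1 replicate 2.

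Among the 12 ligands, 8 were tested, of which 1 was higher and 2 were lower, 37.5% beside the 42.2% of all genes. TNF, both an inducer and a target of NF-kappaB, fell from 1045 and 935 to 651 and 632 normalized counts, to 64.8% of the control level (log2 fold change -0.62, standard error 0.0786, adjusted p = 5.28e-09 from limma). TNFSF14, a ligand of the lymphotoxin beta receptor of the noncanonical pathway, rose from 134 and 157 to 325 and 289 (log2 fold change 1.07). That receptor, LTBR, had a log2 fold change of -0.04 (adjusted p = 0.497). IL1RN, the antagonist of interleukin 1, fell by 0.26 on the log2 scale (adjusted p = 0.0484), a call that was lost with edgeR, with DESeq2, with scaling by total reads, with no filter, with the replicate block and with any 1 library left out. IL1B, at 130 and 110 normalized counts in the controls and 89.5 and 117 after knockdown, did not pass the test (adjusted p = 0.408).

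Well-known target genes went both ways. Of 43 listed, 37 were matched and 30 passed the filter on low values, of which 11 were higher and 9 were lower, 66.7% beside the 42.2% of all genes, with a median log2 fold change of 0.14. The chemokine CCL2 fell from 751 and 763 to 255 and 229 normalized counts (log2 fold change -1.65, adjusted p = 5.01e-18 from limma), and the protease MMP9 had the largest fall of the list, from 209 and 193 to 28.8 and 11.2 (log2 fold change -3.40). F3, the tissue factor, and the adhesion receptor CD44 fell by 0.65 and 0.28 on the log2 scale. CXCL8, another chemokine of the classical response, rose from 95.4 and 85.3 to 255 and 281 (log2 fold change 1.56), the largest rise of the list. PLAU, a plasminogen activator, rose to 192% of the control level, CFLAR, an inhibitor of caspase activation at death receptors, to 163%, TNFAIP2 to 135%, and B2M, the light chain of class I antigen presentation, to 130%. Of the exonic bases of PLAU, 31.0% are shared with C10orf55 on the other strand. The 7 targets that missed the filter, among them IL6, CXCL2 and CXCL10, were at or below 17.8 normalized counts in every library.

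**Figure D5:**
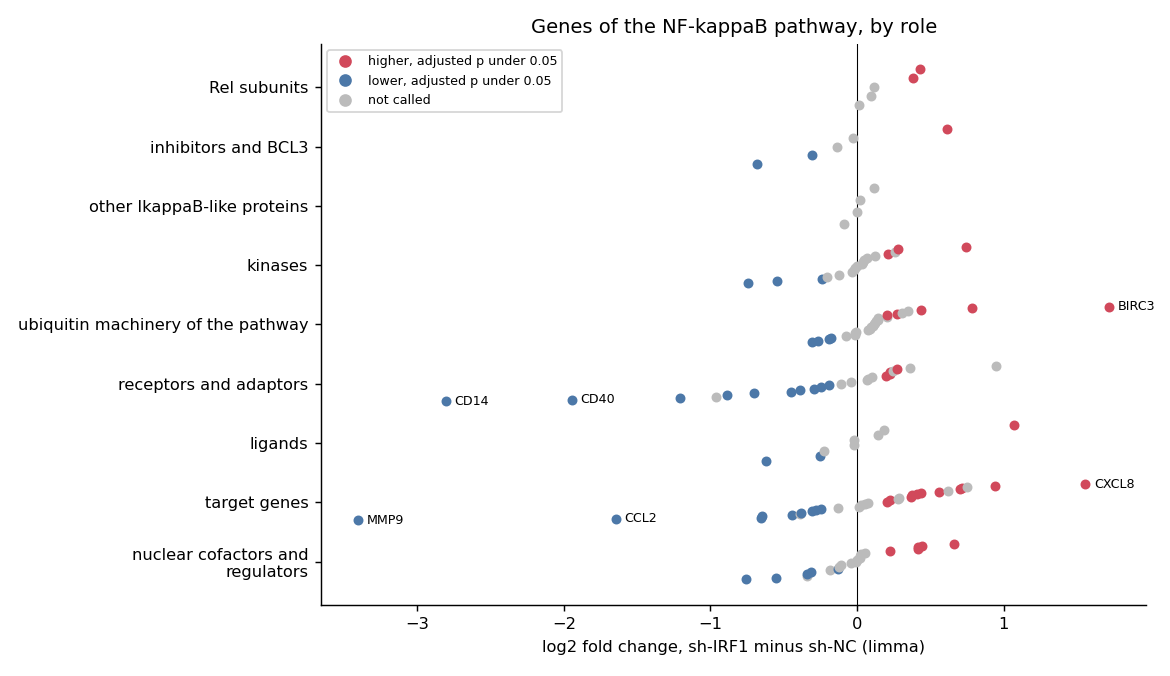
Log2 fold change (sh-IRF1 minus sh-NC, limma) on the x axis of each tested gene of the NF-kappaB pathway, 1 point per gene, in rows by role, with called genes in color and the most changed ones named. Each row with called genes except that of the Rel subunits holds both higher and lower genes, and the receptors and adaptors hold 10 lower and 4 higher.

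Of the 22 nuclear cofactors and regulators of Rel proteins, 21 were tested, with 5 higher and 5 lower, 47.6% beside the 42.2% of all genes. SETD7, a lysine methyltransferase that modifies RELA among other proteins, fell to 59.0% of the control level (log2 fold change -0.76, adjusted p = 4.57e-18 from limma). NKRF, a repressor at kappa B promoters, fell by 0.55, PIAS1, a SUMO ligase, by 0.32, and RPS3, a ribosomal protein with several processed pseudogenes, by 0.34 on the log2 scale. COMMD1, which promotes the removal of RELA from chromatin, rose by 0.66, NKIRAS2, which slows the breakdown of IkappaB beta, by 0.42, and the coactivator CREBBP by 0.22. EP300, its paralog, had a log2 fold change of 0.06 (adjusted p = 0.227). Of the exonic bases of COMMD1, 38.2% are shared with RPSAP26 on the same strand and ENSG00000229839 on the other. For PIAS1 32.7% and for NKRF 21.0% are shared with genes on the other strand. The use of strand is not known, so the reads of these genes are uncertain.

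Counted once each, 128 of the 151 other pathway genes were tested, with 29 higher and 33 lower. That is 48.4%, beside 42.2% of all genes tested, with a median log2 fold change of 0.025. With a log2 fold change beyond 0.5 required, 10 were higher and 14 lower.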

How the data were processed

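MV4-11 RNA was extracted with Trizol and libraries were made with a TruSeq kit. The submitters' processing notes name HISAT2 2.0.5 and hg38; the counting tool and the use of strand are not given in the sources used here. The deposited table holds a normalized signal: the authors divided each gene's reads by 1 size factor per library. All values (100%) were within 0.001 of a read of a whole multiple, so reads were recovered. Symbols matched 99.3% of the identifiers.

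Because the values are not counts, the main test was limma 3.58.1 (R 4.3.3; trend, robust) on log2(value + 1), over the 14120 genes that reached a value of 10 in 2 or more libraries, with Benjamini-Hochberg adjustment over all of them. edgeR 4.0.16 and DESeq2 1.42.0, the tool that the study's methods name, were run on the recovered reads as alternatives. Scripts were tested on simulated data. Other alternatives were other scalings, filters and pseudocounts, a replicate block and leaving out each library. Ratios between genes used the canonical transcript length of GENCODE 44 on GRCh38, chosen after the lengths of all annotated exons had been seen, and were tested by exact two-sided permutation.

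The 10 genes and all lists were chosen with earlier results of these data known. Named genes were the 10, IRF1, up to 4 genes per direction of a list by smallest p, if the groups did not overlap, and the largest change of a list. CHUK, IKBKB, IKBKG, MAP3K7, BTRC, TLR4, TNFRSF13C, IRAK3, LTBR, IL1B, EP300, NFKBIZ, NFKBID, CD79A and the marker genes were named outside this rule, after their values were seen.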

Additional observations from a re-analysis of the deposited data

How the results depend on the processing

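The calls of IRF1, NFKB2, NFKBIE, BCL3 and TNFAIP3 held under all 15 alternatives, and NFKBIA stayed uncalled under all 15. REL lost its call with DESeq2 (0.38) and with 3 of the 4 libraries left out in turn (range 0.28 to 0.48). RELA was called with edgeR (0.12), with scaling by total reads (0.16), with a minimum value of 50 (0.11, adjusted p = 0.0482) and without sh-NC replicate 1, and ranged from 0.073 to 0.16 with each library left out. With each library left out, uncalled changes of NFKB1 ranged from -0.066 to 0.098, of RELB from -0.0022 to 0.20 and of NFKBIB from -0.099 to 0.046, and NFKBIB was 0.018 with scaling by total reads; these directions are not settled. Whether same-numbered libraries were prepared together cannot be told from 2 libraries per group. The correlation of their deviations was -0.0154, from a single contrast. With the replicate block RELA had an adjusted p = 0.0495 (0.11), and no other call among the 10 changed. At a log2 fold change beyond 0.5, 1 of the 10 was higher and 1 lower, 1168 and 1067 of all genes, and 10 and 14 of the pathway genes. The NFKB1 share difference (sh-IRF1 minus sh-NC, in percentage points) was -2.22 without length and -0.935 with all annotated exons, and that of REL was 0.747 without length. The cause of these changes was not tested. The 2 libraries per group say little of the spread of 1 gene, and the 178 reads of REL in sh-NC replicate 1 limit its precision.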

Other observations

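Genes near the 10 NF-kappaB genes were counted after other results had been seen. Within 250 kb of any of the 10, 87 genes were tested, of which 22 were higher and 21 were lower in sh-IRF1, 49.4% beside the 42.2% of all genes tested. Around single genes the share that passed limma's test ran from 0% to 72.7%, with between 1 and 24 neighbours tested. It was 0% for REL (0 of 8), NFKBIA (0 of 3) and TNFAIP3 (0 of 1). Around NFKB2, at 72.7%, 3 of 11 were higher and 5 were lower. The share was 66.7% for RELB, 58.3% for RELA, 55.6% for NFKBIE, 50% for NFKBIB, 40% for NFKB1 and 33.3% for BCL3.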
